A study of Mus musculus with 7 samples.

Results

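The interferon-inducible GTPases are large and medium-sized guanine nucleotide-binding proteins that cells make in response to interferons, above all interferon-gamma. The set comprised 10 genes, the guanylate-binding proteins Gbp2, Gbp3, Gbp5, Gbp7 and Gbp9 and the immunity-related GTPases Irgm1, Irgm2, Igtp, Ifi47 and Tgtp1, chosen by symbol and not by their values. A probe set annotated with a single symbol was found for 7 of the 10, out of 19505 named genes on the array. Gbp5, Ifi47 and Tgtp1 were not analysed here. Here and for the lists below, rows annotated with several symbols were not counted as a probe set of a gene. Each of the 7 had a single probe set, and all 7 passed the filter on dim genes. None of them passed the genotype test.

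Both compared groups were microglia, the resident macrophages of the brain, from mice of the C57BL/6 strain carrying the 5xFAD transgenes, a model that deposits amyloid in the brain. The knockout group (5xFAD;B2m–/–) had 4 samples and the wildtype group (5xFAD;B2m+/+) had 3, with 1 expression array per sample. B2m encodes beta-2-microglobulin, which MHC class I molecules need to reach the cell surface, and mice without it make few CD8+ T cells, a known source of interferon-gamma. The labels gave no age, sex or litter and did not say whether each sample came from a separate animal, so p-values rest only on the spread among the 7 arrays, part of which could be technical. No sample lacked the 5xFAD transgenes, so a response to amyloid itself was not measured.

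Interferon-gamma binds a receptor made of Ifngr1 and Ifngr2 and acts on genes through promoter elements called GAS, while type I interferons act mainly through elements called ISRE. The guanylate-binding proteins (GBPs) then assemble on the vacuoles of intracellular pathogens and on bacteria in the cytosol and promote inflammasome activation. Among the immunity-related GTPases (IRGs), Irgm1, Irgm2 and Igtp (also called Irgm3) are regulators that sit on the cell's own membranes and hold the effector IRGs, such as Ifi47 and Tgtp1, inactive there. In the brain, these genes are commonly read as a sign that microglia have met interferon.

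The promoters of 4 measured members, from both families, are shown because they carry letter matches to GAS, ISRE or both. They are RefSeq windows of assembly GRCm38.p6 from 250 bases before to 50 after the annotated start, written 5′ to 3′ on the strand of the gene, with matches to GAS (TTCNNNGAA, which reads the same on both strands) and ISRE (a pair of GAAA runs with 2 arbitrary bases between them, on either strand) in capitals. The 2 ISRE matches of Gbp3 overlap and read as 1 run of capitals. Gbp7 (chr3:142530086-142530385, plus strand) and the upstream window of Gbp3 (chr3:142559794-142560093, plus strand) lie in the GBP cluster on chromosome 3. Irgm2 (chr11:58214727-58215026, plus strand) and Igtp (chr11:58199306-58199605, plus strand) are neighbours on chromosome 11.
Gbp7: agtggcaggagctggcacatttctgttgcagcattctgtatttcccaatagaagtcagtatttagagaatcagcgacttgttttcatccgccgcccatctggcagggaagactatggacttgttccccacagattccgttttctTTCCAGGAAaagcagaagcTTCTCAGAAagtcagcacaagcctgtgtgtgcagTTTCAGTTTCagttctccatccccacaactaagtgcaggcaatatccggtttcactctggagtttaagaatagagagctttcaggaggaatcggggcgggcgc
Gbp3: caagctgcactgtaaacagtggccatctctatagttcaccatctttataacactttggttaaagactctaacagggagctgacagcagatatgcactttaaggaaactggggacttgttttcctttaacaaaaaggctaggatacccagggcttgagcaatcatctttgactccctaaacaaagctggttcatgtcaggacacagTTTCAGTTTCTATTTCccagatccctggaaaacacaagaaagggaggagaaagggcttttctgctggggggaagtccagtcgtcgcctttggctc
Irgm2: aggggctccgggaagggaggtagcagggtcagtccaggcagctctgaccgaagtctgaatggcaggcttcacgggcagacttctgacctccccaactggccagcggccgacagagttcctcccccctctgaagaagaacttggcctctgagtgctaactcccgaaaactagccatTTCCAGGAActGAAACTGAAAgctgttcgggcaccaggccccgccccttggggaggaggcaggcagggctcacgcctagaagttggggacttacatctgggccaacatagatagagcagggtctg
Igtp: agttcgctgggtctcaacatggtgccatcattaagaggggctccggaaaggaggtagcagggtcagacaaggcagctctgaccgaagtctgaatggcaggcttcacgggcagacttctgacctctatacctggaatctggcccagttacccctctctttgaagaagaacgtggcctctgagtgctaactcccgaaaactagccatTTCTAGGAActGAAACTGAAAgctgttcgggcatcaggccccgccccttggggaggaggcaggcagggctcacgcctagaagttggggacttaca

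Irgm2 and Igtp carry a GAS match followed after a gap of a pair of bases by an ISRE match, and their windows were identical at 73.5% of aligned columns. In Gbp7, 2 GAS matches precede an ISRE match on the opposite strand, and Gbp3 has the ISRE matches without a GAS match. Irgm1, an IRG, likewise had 2 ISRE matches and no GAS match. Gbp5 held both elements, so they did not separate the families. RefSeq windows were found for 9 of the 10 members, Gbp3 having 2, which gave 10 windows. A GAS match lay in 5 of the 10, an ISRE match in 8 and both in 5. The window of Ifi47 and the downstream window of Gbp3 held neither. Of all 32851 promoter windows of this length, 8.3% held a GAS match, 3.44% an ISRE match and 0.454% both. These are letter matches and not measured binding sites.

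Values were log2 expression per probe set after the authors' RMA, and differences are knockout minus wildtype. Of 10004 tested genes, 5 passed in limma at a Benjamini-Hochberg adjusted p under 0.05. B2m was 10.40, 10.56, 10.47 and 10.24 in knockout arrays, against 13.42, 13.41 and 13.39 in wildtype arrays. Microglial markers were high on every array, with means over 13 genes of 12.21 to 12.31 in knockout and 12.19 to 12.26 in wildtype arrays. Neutrophil and monocyte markers were uneven, both being highest in knockout replicate 4, and endothelial markers were highest in wildtype replicates 1 and 2. Because the arrays read bulk RNA, fewer cells of a type and less RNA per cell cannot be told apart.

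Among the GTPases, 0 of 7 passed in limma, where 0.05% of all tested genes did. At an unadjusted p under 0.05 the count was also 0 of 7, beside 11.9% of all tested genes. The knockout and wildtype arrays overlapped for each of the 7, whereas they did not overlap for 10.9% of all tested genes. Every knockout array was below every wildtype array in 3.8% of tested genes and above in 7.1%. The median difference of the 7 was -0.044, against -0.0055 over all tested genes. The estimates lay on both sides of 0, with all 4 GBPs below it and 2 of the 3 IRGs above it, and 51.4% of all tested genes were below 0.

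Gbp7, which helps bring autophagy and oxidase proteins to bacteria, had the lowest estimate of the set. It was 9.90, 9.02, 9.63 and 10.12 in knockout arrays, against 10.39, 10.06 and 10.01 in wildtype arrays. Knockout replicates 1, 2 and 3 were below every wildtype array, and knockout replicate 4 lay inside the wildtype range. The means were 9.67 ± 0.48 (SD, n = 4) in knockout and 10.15 ± 0.21 (SD, n = 3) in wildtype arrays. The difference was -0.49 (SE 0.23, limma adjusted p = 0.432), or 0.714-fold with a 95% confidence interval of 0.505 to 1.01. Without knockout replicate 2 it was -0.27 (SE 0.15), so that array carried much of the estimate. Without knockout replicate 4 it was -0.64 (SE 0.21), further from 0. With wildtype replicates 1 and 2 left out, where endothelial markers were highest, it was -0.35 (SE 0.36), with 1 wildtype array left.

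Gbp3, a neighbour of Gbp7 on chromosome 3, had the next lowest estimate. It was 9.42, 9.07, 8.90 and 9.53 in knockout arrays, against 9.87, 9.31 and 9.51 in wildtype arrays. Knockout replicates 2 and 3 were below every wildtype array, and replicates 1 and 4 were not. The difference was -0.33 (SE 0.18, limma adjusted p = 0.494), with a 95% confidence interval of -0.72 to 0.061. It was -0.18 without wildtype replicate 1, the array with the highest value, and -0.46 without wildtype replicate 2.

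Gbp2, which coats the vacuole of Toxoplasma in infected mouse cells, was 8.02, 7.63, 7.83 and 7.94 in knockout arrays, against 7.90, 8.12 and 8.10 in wildtype arrays. The groups overlapped between knockout replicates 1 and 4 and wildtype replicate 1. The difference was -0.19 (SE 0.12, limma adjusted p = 0.555), and it was -0.11 without knockout replicate 2 and -0.26 without wildtype replicate 1. Gbp9, from the GBP cluster on chromosome 5, was 8.26, 8.53, 8.23 and 8.31 in knockout arrays, against 8.70, 8.11 and 8.32 in wildtype arrays. The wildtype arrays spanned the whole knockout range. Its difference was -0.044 (SE 0.14, limma adjusted p = 0.931), and it was 0.12 without wildtype replicate 1.

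**Figure D1:**
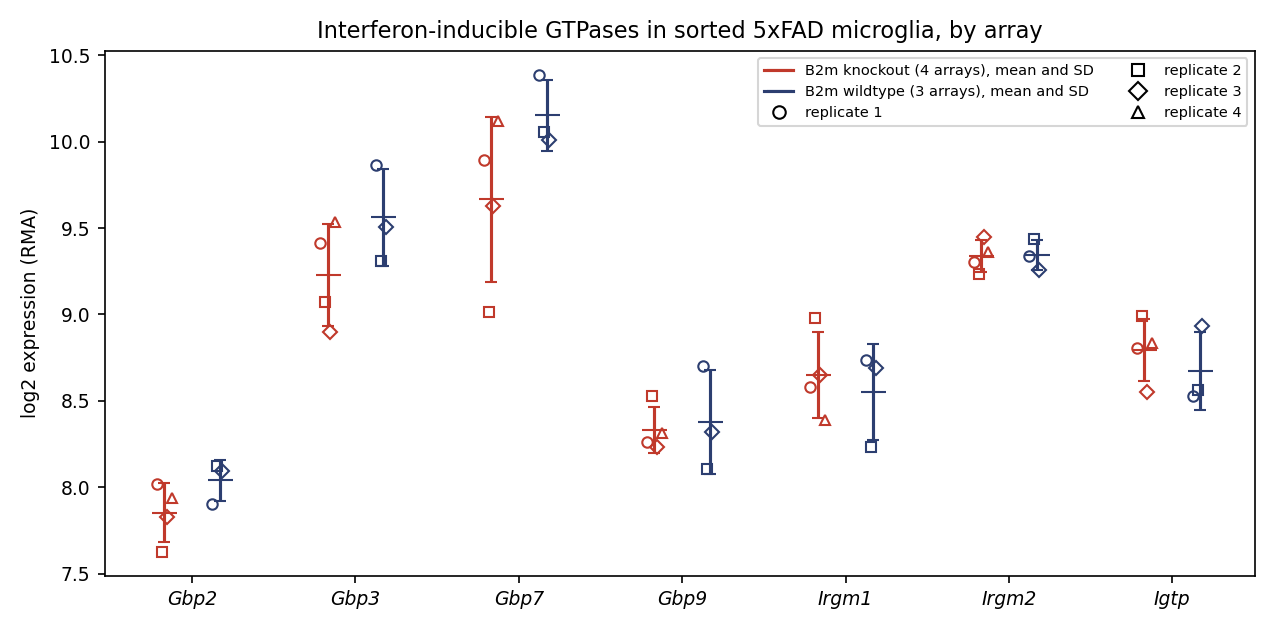
Log2 expression (y axis) of the 7 measured GTPases on each array, with knockout arrays in red at the left of each pair and wildtype arrays in blue at the right; horizontal ticks and bars are the mean and SD of 4 knockout and 3 wildtype arrays, and symbols mark the replicate. The groups overlap for every gene, and Gbp7 spans the widest range, with knockout replicate 2 at 9.02.

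Among the regulatory IRGs, Irgm1, which is needed for defence against mycobacteria and for normal mitochondria and autophagy in mouse cells, was 8.58, 8.98, 8.65 and 8.39 in knockout arrays, against 8.73, 8.23 and 8.69 in wildtype arrays. Its highest value was in knockout replicate 2 and its lowest in wildtype replicate 2. The difference was 0.098 (SE 0.16, limma adjusted p = 0.853), and it was -0.061 without wildtype replicate 2 and -0.012 without knockout replicate 2. Igtp, which protects mice against Toxoplasma, was 8.80, 8.99, 8.55 and 8.84 in knockout arrays, against 8.53, 8.56 and 8.93 in wildtype arrays. Knockout replicates 1, 2 and 4 exceeded wildtype replicates 1 and 2, and wildtype replicate 3 exceeded all knockout arrays but replicate 2. The difference was 0.12 (SE 0.14, limma adjusted p = 0.761), and it was 0.049 without wildtype replicate 1, 0.066 without wildtype replicate 2, 0.057 without knockout replicate 2, 0.20 without knockout replicate 3 and 0.25 without wildtype replicate 3.

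Irgm2, which restrains caspase-11 responses to bacterial lipopolysaccharide in mouse macrophages, was the steadiest member. It was 9.30, 9.23, 9.45 and 9.36 in knockout arrays, against 9.34, 9.43 and 9.26 in wildtype arrays. The 7 arrays differed by at most 0.22, a range narrower than that of all but 5.01% of tested genes. The difference was -0.0071 (SE 0.10, limma adjusted p = 0.985), and its 95% confidence interval of 0.854-fold to 1.16-fold was the narrowest of the set. The interval of Gbp7, from 0.505-fold to 1.01-fold, left room for a fall to near 0.505 of the wildtype level, so its missing call does not show equal expression.

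**Figure D2:**
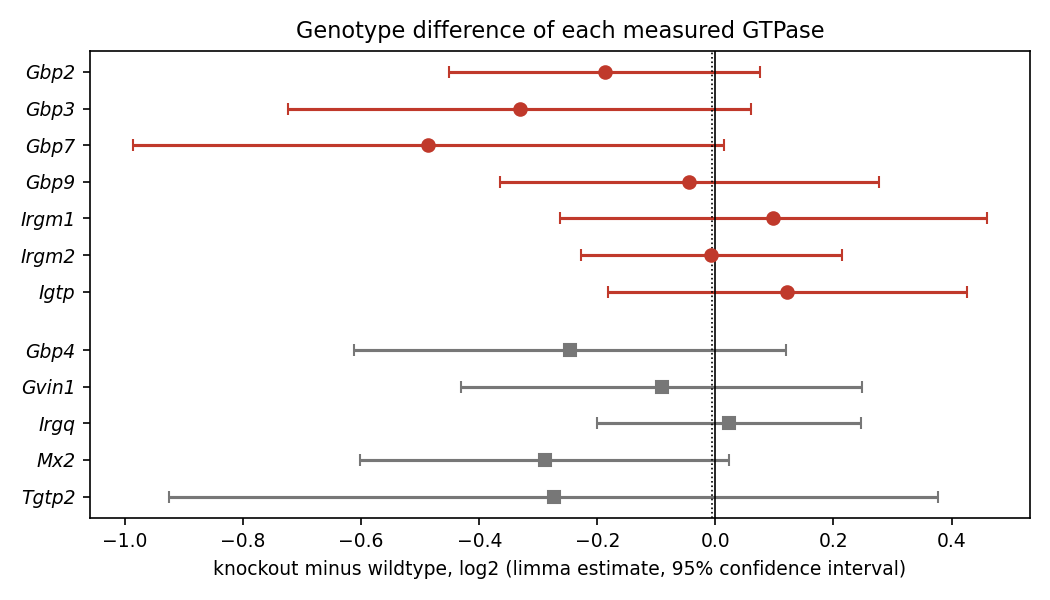
Knockout minus wildtype difference in log2 units (x axis) of the 7 GTPases of the set (red circles) and of the 5 other tested GTPases (grey squares), with 95% confidence intervals from limma. The dotted line is the median of all tested genes at -0.0055, and every interval includes 0.

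Low signal limits part of these values. The 95th percentile of the array's 5222 negative control rows, a rough guide to background because some of those rows are bright, lay between 9.35 and 9.55. Gbp2, Gbp9, Irgm1 and Igtp were below that percentile on all 7 arrays, at the 76.0th to 92.4th percentiles of those rows. Gbp7 ranged from the 92.6th to the 98.2nd, Gbp3 from the 91.4th to the 96.9th and Irgm2 from the 94.0th to the 95.2nd. Several of these genes have close paralogs, and whether their probe sets share sequence with them was not analysed here.

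The members did not move together from array to array. Knockout replicate 2 had the lowest value of all 7 arrays for Gbp2, Gbp7 and Irgm2 and the highest for Irgm1 and Igtp. Wildtype replicate 1 had the highest Gbp3, Gbp7 and Gbp9 and the lowest Igtp. Averaged over the 4 GBPs, the deviation from each gene's own mean was 0.015, -0.32, -0.24 and 0.094 in knockout arrays 1 to 4, against 0.33, 0.017 and 0.10 in wildtype arrays 1 to 3. Averaged over the 3 IRGs, it was -0.0005, 0.17, -0.013 and -0.036 in knockout arrays, against -0.030, -0.15 and 0.062 in wildtype arrays. On these averages, knockout replicate 2 was the lowest array for the GBPs and the highest for the IRGs. Single members differed from their family there, Gbp9 deviating by 0.17 and Irgm2 by -0.11. Irgm2 and Igtp, whose promoters are the most alike of those compared, deviated in opposite directions on 5 of the 7 arrays, although Irgm2 moved little.

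**Figure D3:**
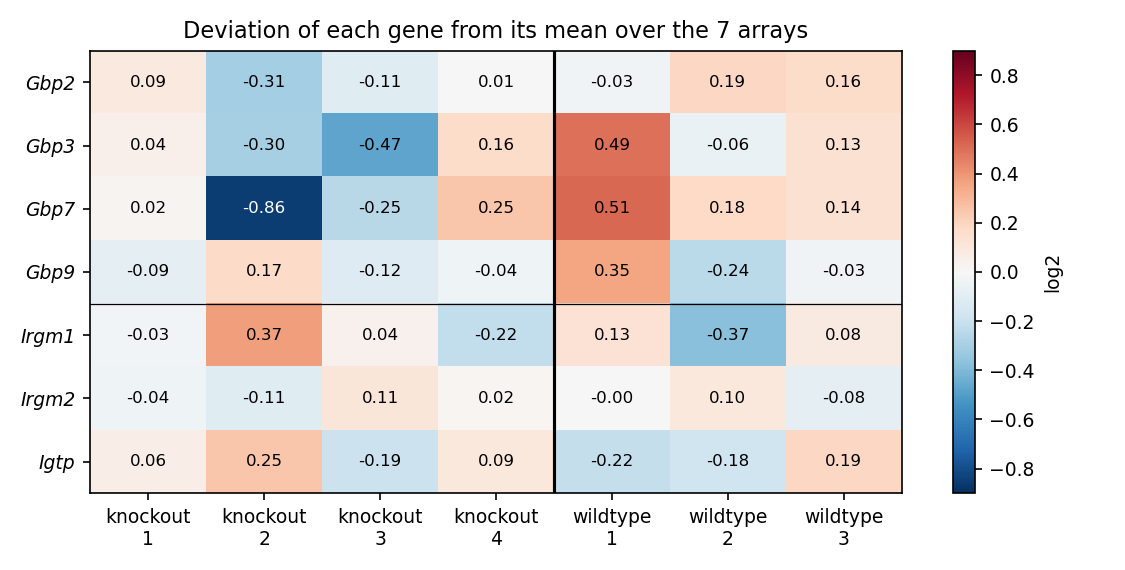
Deviation of each GTPase (rows) from its own mean over the 7 arrays (columns, knockout at the left of the black line and wildtype at the right), in log2 units by colour and printed value. Knockout replicate 2 holds both the deepest fall, Gbp7 at -0.86, and the highest Irgm1 value, at 0.37.

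Gbp7 varied more than most genes, its residual SD of 0.39 being above that of 97.0% of tested genes. Gbp3 stood at 90.3% and Irgm1 at 86.0%, while Gbp2 at 46.0% was near the middle. The 5 non-member genes whose levels over the 7 arrays were most like the members' mean profile were Hsp90aa1, a chaperone, Klf4, a transcription factor, Lag3, an inhibitory receptor, Sfpq, an RNA-binding protein, and Slx4, a scaffold of DNA repair nucleases. That profile was an unscaled mean of members that did not move together. Members with wide ranges, such as Gbp7 at 1.37 against 0.22 for Irgm2, therefore weighed more in it. Likeness was the Pearson coefficient over 7 arrays, 0.990 for Hsp90aa1 and 0.975 for Slx4, the top of 9669 genes ranked, so that values this high are partly a product of the ranking. Hsp90aa1 was 12.41, 12.25, 12.13 and 12.46 in knockout arrays, against 12.73, 12.25 and 12.52 in wildtype arrays. It differed by -0.19 (SE 0.13, limma adjusted p = 0.603), and Lag3 differed by -0.33 (SE 0.15, limma adjusted p = 0.417).

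Of 13 other listed GTPases, which held further GBPs and IRGs and also dynamin-like and giant GTPases, 9 had a probe set and 5 were tested. Of the 5 tested, 4 lay below 0, with a median of -0.25. Of them 0 passed in limma or had an unadjusted p under 0.05, beside 0.05% and 11.9% of all tested genes. Mx2, an antiviral dynamin-like GTPase, differed by -0.29 (SE 0.14, limma adjusted p = 0.453). Gvin1, a giant interferon-inducible GTPase, differed by -0.091 (SE 0.15, limma adjusted p = 0.854). Tgtp2, the near-identical paralog of Tgtp1, was 9.24, 8.54, 8.65 and 7.72 in knockout arrays, against 9.01, 8.42 and 9.01 in wildtype arrays, and differed by -0.27 (SE 0.29, limma adjusted p = 0.747). Knockout replicate 1 was the highest and knockout replicate 4 the lowest of the 7 arrays for Tgtp2. Gbp4 was 8.23, 7.47, 7.71 and 7.60 in knockout arrays, against 8.06, 7.89 and 8.05 in wildtype arrays (difference -0.25, SE 0.16, limma adjusted p = 0.574). Iigp1, an effector IRG chosen after its values were seen, was too dim to be tested, at 7.73, 7.05, 7.44 and 6.72 in knockout arrays, against 7.32, 7.15 and 7.55 in wildtype arrays. Tgtp2, Gbp4 and Iigp1 were highest in knockout replicate 1, whereas Mx2 was lowest there, and on every array all 4 had values under the 95th percentile of those control rows.

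The signalling genes upstream of the GTPases were tested from a list of 19, of which 17 had a probe set and 16 were tested. Of these 0 passed in limma, beside 0.05% of all tested genes, and the median was -0.029. At an unadjusted p under 0.05 the count was also 0, beside 11.9% of all tested genes. The receptor subunits Ifngr1 and Ifngr2, chosen after their values were seen, had differences of -0.081 (SE 0.096) and 0.057 (SE 0.095). Irf1, the transcription factor that carries much of the interferon-gamma response and also chosen after its values were seen, was 11.30 ± 0.28 (SD, n = 4) in knockout and 11.26 ± 0.19 (SD, n = 3) in wildtype arrays. Ciita, the activator of MHC class II genes, at -0.23 (SE 0.12), Irf2 at -0.24 (SE 0.13), the phosphatase Ptpn11 at -0.22 (SE 0.12) and Irf8, a myeloid transcription factor, at 0.19 (SE 0.12) had the smallest unadjusted p, with limma adjusted p from 0.485 to 0.545.

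Ifng itself, named after its values were seen, was 7.29, 7.42, 7.29 and 7.15 in knockout arrays, against 7.29, 7.19 and 7.15 in wildtype arrays, under the filter. Of 24 listed markers of T and natural killer cells, 21 had a probe set and on every array all 21 had values under the 95th percentile of the control rows. Their mean was 6.80 to 7.06 in knockout and 6.93 to 7.01 in wildtype arrays. Only 2 of them, Nkg7 at -0.15 (SE 0.16) and Cd4 at -0.095 (SE 0.15), were tested. Of these 2, 0 passed in limma or at an unadjusted p under 0.05, beside 0.05% and 11.9% of all tested genes. In these sorted CD45+ CD11b+ cells, these genes were thus not above this rough background in either genotype. The part of the sort in this was not tested.

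Non-GTPase targets of interferon-gamma did not pass either. Of 30 listed genes 20 were tested, 0 passed in limma. At an unadjusted p under 0.05, 3 of them lay higher and 1 lower in knockout, beside 8.39% higher and 3.54% lower of all tested genes, with a median of 0.044. The smallest unadjusted p belonged to the proteasome activator Psme2 at 0.33 (SE 0.12), the immunoproteasome subunits Psmb8 at 0.43 (SE 0.16) and Psmb9 at 0.39 (SE 0.17), and the MHC class II gene H2-Aa at -0.36 (SE 0.16), with limma adjusted p from 0.349 to 0.406. The chemokine Cxcl10 at 0.11 (SE 0.11) and the checkpoint ligand Cd274 at -0.027 (SE 0.14), both chosen after their values were seen, had limma adjusted p of 0.721 and 0.958. The type I interferon list had 25 tested genes with a median of 0.12, of which 0 passed in limma. At an unadjusted p under 0.05, 7 of the 25 lay higher in knockout and 0 lower, beside 8.39% and 3.54% of all tested genes. Slfn2, at 10.16 ± 0.071 (SD, n = 4) in knockout and 9.82 ± 0.13 (SD, n = 3) in wildtype arrays, and the double-stranded RNA sensor Oas1a at 0.59 (SE 0.20), Rtp4 at 0.40 (SE 0.14) and Irf7 at 0.51 (SE 0.19) had the smallest unadjusted p of that list. The median was thus above 0 in the type I list and below 0 in the GTPase set, and the difference between the lists was not tested.

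**Figure D4:**
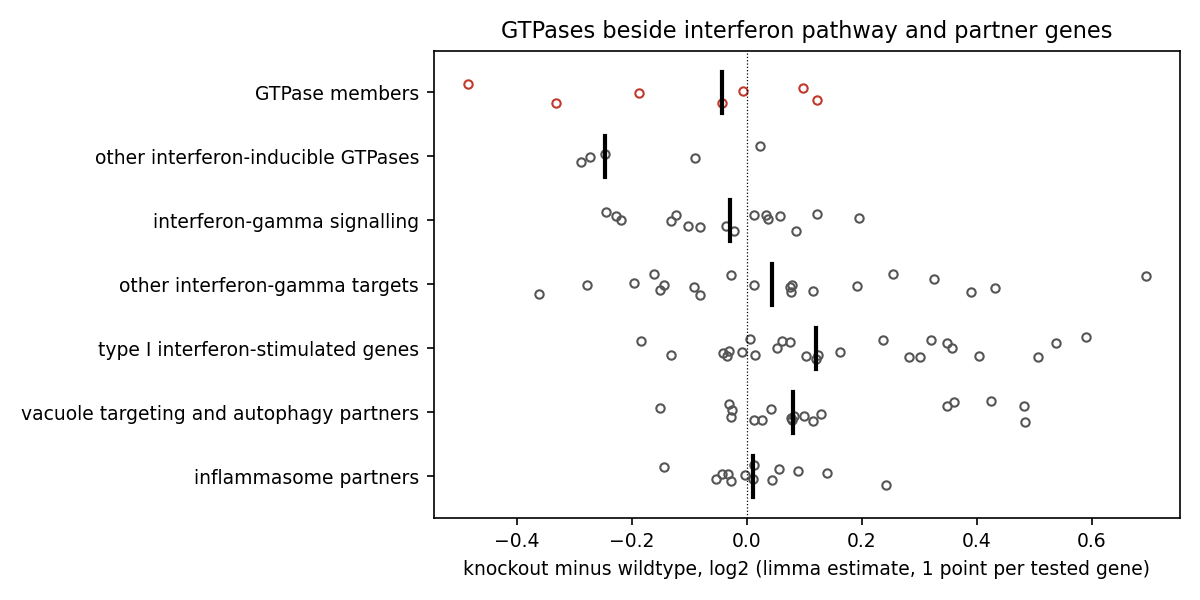
Knockout minus wildtype difference in log2 units (x axis) for each tested gene of the GTPase set (red) and of 6 related lists (grey), with the median of each list as a black bar. The GTPase median is -0.044, the interferon-gamma signalling median -0.029 and the type I interferon median 0.12; no gene shown passed the adjusted test.

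GTPases act with the autophagy machinery that loads them on membranes and with inflammasome proteins. Of 18 tested autophagy and vacuole genes, 0 passed in limma, with a median of 0.080. At an unadjusted p under 0.05, 5 of the 18 lay higher in knockout and 0 lower, beside 8.39% and 3.54% of all tested genes. Atg3, the conjugating enzyme required for placing IRGs and GBPs on vacuoles, was 10.05 ± 0.16 (SD, n = 4) in knockout and 9.63 ± 0.13 (SD, n = 3) in wildtype arrays. Its knockout arrays were all above its wildtype arrays, which held for 7.1% of all tested genes. The Atg3 difference of 0.43 (SE 0.12) had a limma adjusted p of 0.315. Gabarapl2 at 0.35 (SE 0.13) and Map1lc3a at 0.36 (SE 0.14), members of the family that Atg3 conjugates, and Lgals3, a lectin that marks broken vacuoles, at 0.48 (SE 0.19) had limma adjusted p from 0.349 to 0.386. Of 13 tested inflammasome genes, 0 passed in limma, beside 0.05% of all tested genes, and the median was 0.011. At the unadjusted threshold of 0.05 the count was also 0, beside 11.9% of all tested genes. The adaptor Pycard differed by 0.24 (SE 0.11) and the cytokine genes Il18 and Il1b by -0.14 (SE 0.12) and 0.14 (SE 0.15), and the DNA sensor Cgas by 0.088 (SE 0.10).

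Markers of other cell types differed between arrays beside these values. All 16 tested endothelial and mural markers lay below 0 in knockout, with a median of -0.29, and an unadjusted p under 0.05 was reached by 5, each lower in knockout, beside 3.54% of all tested genes. Endothelial cells generally lack CD45 and CD11b, the markers of the sort. Their mean over 17 genes was 9.21 to 9.34 in knockout arrays, against 9.74, 9.86 and 9.10 in wildtype replicates 1, 2 and 3, and 8 of the 17 were under the 95th percentile of the control rows on every array. The defining endothelial gene Cldn5 was 12.17, 12.02, 12.20 and 11.77 in knockout arrays, against 12.38, 12.60 and 11.78 in wildtype arrays. All 8 tested neutrophil markers lay above 0, with a median of 0.62. Of them 1 was higher at an unadjusted p under 0.05, beside 8.39% of all tested genes. The neutrophil marker mean was 9.90, 10.53, 11.23 and 11.88 in knockout arrays, against 10.19, 10.72 and 10.01 in wildtype arrays. The S100a8 level ran from 10.56 to 12.44 in knockout and from 10.16 to 11.37 in wildtype arrays. Monocyte markers had a mean over 7 genes of 8.73 to 9.85 in knockout and 8.52 to 9.12 in wildtype arrays, 3 of the 7 being below that percentile on every array. Of the 6 tested, 3 lay above 0. At an unadjusted p under 0.05, 2 were higher in knockout, Plac8 and Chil3, beside 8.39% of all tested genes. Plac8 averaged 10.71 ± 0.54 (SD, n = 4) in knockout and 9.61 ± 0.55 (SD, n = 3) in wildtype arrays (limma adjusted p = 0.315), and Chil3 differed by 1.17 (SE 0.47, limma adjusted p = 0.386). The part of these cells in the GTPase values was not tested. Astrocyte, oligodendrocyte and neuron lists had 8 of 8, 7 of 7 and 6 of 7 genes below that percentile on every array.

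**Figure D5:**
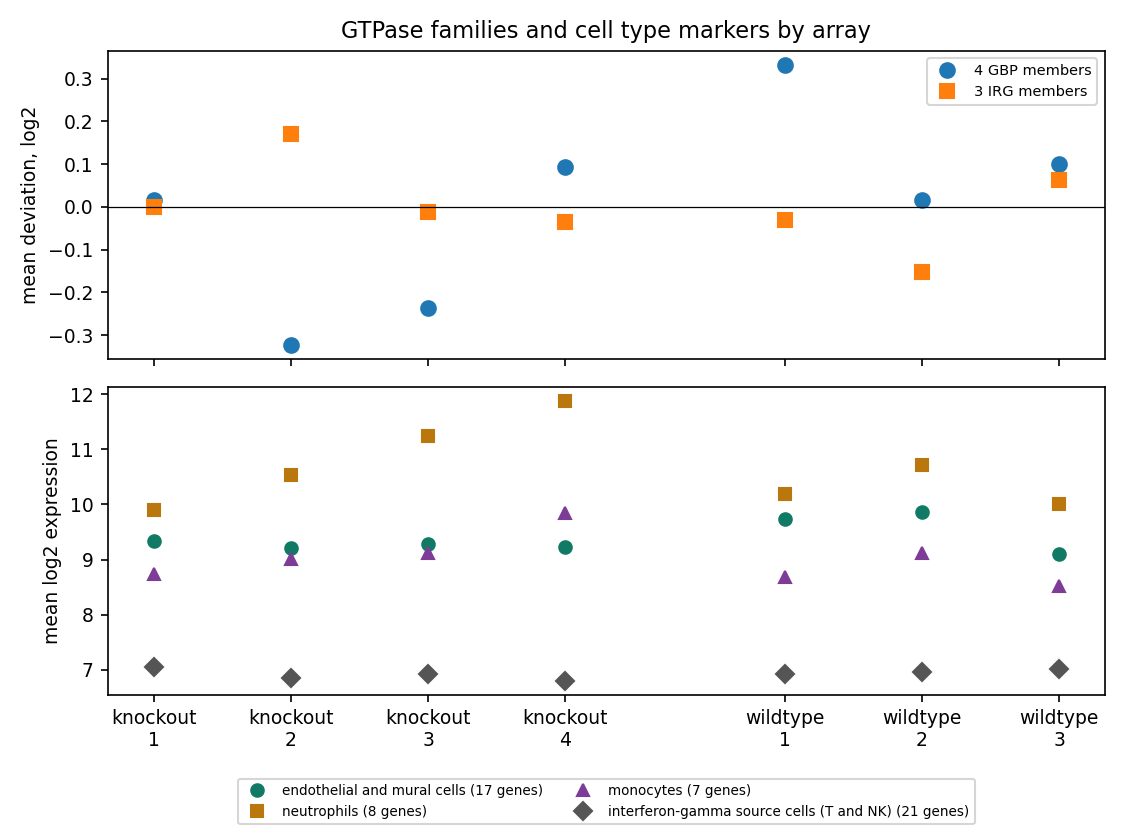
Upper panel, mean deviation in log2 units of the 4 GBPs and 3 IRGs on each array; lower panel, mean log2 expression of 4 cell type marker lists on the same arrays, knockout at the left and wildtype at the right. The GBP deviation is lowest in knockout replicate 2 and highest in wildtype replicate 1, while neutrophil markers peak in knockout replicate 4 at 11.88 and endothelial markers in wildtype replicate 2 at 9.86.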

How the data were processed

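Microglia were sorted as CD45+ CD11b+ cells, per the labels, and 1 array was hybridized per sample, 4 knockout and 3 wildtype. Replicate numbers follow the order of the deposited samples within each group and have no other meaning. The deposited values are log2 expression per probe set, which the authors made by RMA, per the submitters' processing notes, using Affymetrix Expression Console 1.1. For the genome build and the probe annotation of that step, a version is not given in the sources used here. RMA scales arrays to a common distribution, which would hide a shift of all genes. The 28846 rows had array medians of 7.68 to 7.75, so nothing was renormalized.

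A platform annotation gave 1 symbol to 19572 rows, updated by Entrez identifier to RefSeq names of GRCm38.p6. For 55 genes with several probe sets, the highest mean was kept. Genes above their array's median in at least 3 of 7 arrays (10004) were tested with limma 3.58.1 (R 4.3.3, lmFit and eBayes, Benjamini-Hochberg over all tested genes). The script was tested on simulated data. The number of arrays limits the precision.

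The members, lists and alternatives were chosen with earlier results of these data known. The text names all members, B2m, up to 4 genes of each pathway list with the smallest unadjusted p, marker genes by level or smallest p, and the 5 most alike profiles; other names are stated to be chosen after their values were seen. Alternatives were 2 filters, 2 variance priors, array weights, 2 normalizations, probe set means, leaving out arrays, and an exact permutation test.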

Additional observations from a re-analysis of the deposited data

Results flagged for a closer look

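Among the 74 genes named by rule, chance flags about 5% of groups for a gap large against the group's range. Only 1 had a knockout array set apart from the other 3 by such a gap. It was Csf1r, the receptor that keeps microglia alive, at 13.36 in knockout replicate 4, against 13.28 to 13.29 in the other knockout arrays. None of the 7 GTPases had such an array. Wildtype groups of 3 and the genes chosen after their values were seen were not examined. Among the latter, Clec12a was 8.66 in knockout replicate 4, against 7.25 to 7.30 in the other knockout arrays.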

How the results depend on the processing

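None of the 7 GTPases passed in limma under any of 17 alternatives, and the lowest adjusted p was 0.229, for Gbp7 without knockout replicate 4. Gbp7 and Gbp3 stayed below 0 in all 17 and Gbp2 in all 16 that tested it. An unadjusted p under 0.05 was reached in 5 alternatives for Gbp7 and 2 for Gbp3. In exact permutation tests over 35 splits (two-sided, smallest possible p 0.0286), the lowest p of the set was 0.200. The members' median ran from -0.15 to -0.010 over the fits that left out 1 array, reaching -0.15 without wildtype replicate 2, and was -0.33 with a stricter filter on dim genes, which kept only Gbp3, Gbp7 and Irgm2. The count over all genes ran from 4 to 26 when 1 array was left out and was 26 without wildtype replicate 3. Directions near 0 turned. Irgm2 was 0.0070 with array weights, 0.027 after centring on array medians and -0.050 to 0.039 when 1 array was left out. Over the same fits Gbp9 ran from -0.18 to 0.12 and Irgm1 from -0.061 to 0.19. Without wildtype replicate 1 and knockout replicate 4 together, Gbp9 was 0.13. With only wildtype replicate 3 kept, and assumed to vary like the knockout arrays, Gbp9 was 0.015, Irgm2 0.078, Igtp -0.14 and Irgm1 -0.038. The cause was not tested. No paired analysis was possible because the labels number no replicates. Low signal limits Gbp2, Gbp9, Irgm1 and Igtp most.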

Other observations

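Acod1, which makes the antimicrobial metabolite itaconate and was chosen after its values were seen, was 8.48, 9.37, 9.63 and 10.33 in knockout arrays, against 8.75, 8.76 and 8.76 in wildtype arrays. The wildtype arrays were nearly equal and lay inside the knockout range, and the difference was 0.69 (SE 0.33, limma adjusted p = 0.439). The mean of 8 neutrophil markers was 9.90, 10.53, 11.23 and 11.88 in knockout arrays, against 10.19, 10.72 and 10.01 in wildtype arrays. Acod1 and this mean ranked the 4 knockout arrays in the same order, lowest in replicate 1 and highest in replicate 4. Among wildtype arrays the mean varied while Acod1 was nearly equal, with values under the 95th percentile of the negative controls. The part of neutrophil RNA in the Acod1 values was not tested. Border-associated macrophage markers went both ways, with 4 of 9 tested above 0 and a median of -0.017. Among them Siglec1, a sialic acid-binding lectin that interferons induce, was 8.51 ± 0.093 (SD, n = 4) in knockout and 8.77 ± 0.12 (SD, n = 3) in wildtype arrays. Every knockout array of Siglec1 was below every wildtype array, which held for 3.8% of all tested genes. Its difference of -0.26 (SE 0.10) did not pass (limma adjusted p = 0.386), and on every array its values were under the 95th percentile of the negative controls. Clec12a, chosen after its values were seen and too dim to be tested, was 7.62 ± 0.69 (SD, n = 4) in knockout and 6.94 ± 0.095 (SD, n = 3) in wildtype arrays. It had no overlap in the other direction, which held for 7.1% of all tested genes.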
